A study of Mus musculus with 4 samples.

Results

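Crem, the gene of the cAMP response element modulator, was followed across immune cells of mice given YKL-05-099, an inhibitor of the salt-inducible kinases (SIKs), or its vehicle. It is 1 of the 32285 genes counted in each of 2 droplet libraries, and it was selected on its UMI counts, which earlier results of these data showed to be higher in treated than in vehicle mice, so its levels are described here without a test. All animals were B6 mice bearing BeCon tumours; the title of the series speaks of ovarian cancer. Cells that were alive and positive for CD45 and MHC class I had been sorted from each sample, marked with a hashtag antibody for mouse and tissue, and pooled. Ascites, the tumour-bearing fluid of the peritoneal cavity, came from treated mice 1 to 4 and vehicle mice 1 to 4. Spleen and blood shared the second library and came from treated mice 2 to 4 and vehicle mice 1 to 3. All the mice, those given vehicle included, carried the tumour, so no tumour-free animals enter any comparison, and the labels used here give neither the dose nor the duration of treatment.

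SIKs phosphorylate the CRTC coactivators and thereby keep them in the cytoplasm. When SIK activity falls, CRTCs enter the nucleus and join the transcription factor CREB at cAMP response elements. Crem is itself a textbook target of CREB. An internal promoter of the gene yields ICER, a short repressor that lacks an activation domain and competes with CREB at the same elements, and longer isoforms act as activators or repressors. In T cells CREM and ICER are known for repressing cytokine genes such as Il2.

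Cells that passed the filters and carried 1 mouse's hashtag numbered 4368 in the ascites library and 5682 in the library of spleen and blood. Each mouse contributed 289 to 873 ascites cells, 501 to 667 spleen cells or 288 to 442 blood cells, with summed totals of 2284275 to 7758416, 3877877 to 4916384 and 1447070 to 2356521 UMIs (unique molecular identifiers, counted transcripts). Transcripts of Ptprc, which encodes CD45, were seen in 87.1% of the ascites cells and 89.3% of the others, and 3 ascites cells and 0 spleen or blood cells met the gate for tumour or stromal cells. The libraries shared 52 barcode sequences. A class of cells means here cells gated by marker transcripts, and a level is the UMIs of Crem per 1000000 UMIs (CPM) summed over one mouse's cells of that class.

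Crem lies on chromosome 18, minus strand, from base 3266048 to base 3337748 of the mm10 (GRCm38) genome in the GENCODE M21 annotation. Of its 39 annotated transcripts, 33 end within 2000 bases of the gene's 3′ end, and these include all 7 that start more than 50000 bases downstream of the gene's start, among the internal starts. Counts made from the 3′ ends of transcripts therefore cannot separate ICER from the longer isoforms, and every value below is for the gene as a whole. A predicted gene on the opposite strand, Gm6225, overlaps it.

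In ascites, Crem was higher in treated mice in each class that could be set side by side, with no overlap between the arms. Over all ascites cells the level was 134.5, 152, 178 and 172 CPM in treated mice 1 to 4, against 15.7, 14.6, 12.4 and 25.4 CPM in vehicle mice 1 to 4. The means were 159 ± 19.7 and 17.0 ± 5.76 CPM (SD, n = 4 each), 9.35 times as high in treated mice. Vehicle mouse 4 stood above the other vehicle mice and still far below the lowest treated mouse.

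Among classes with at least 10 cells in 3 or more mice of each arm, migratory dendritic cells and cDC1 held the highest levels. In cDC1, the conventional dendritic cells that present cell-derived antigen to CD8 T cells, Crem reached 219, 171, 266 and 242 CPM in treated mice 1 to 4, against 21.2, 6.48, 25.4 and 54.8 CPM in vehicle mice 1 to 4. The log2 change from the edgeR fit over all genes was 2.94 ± 0.38 (SE), the rank 8 among the rises of 6115 genes. Leaving out single mice gave 2.71 to 3.53, the highest without vehicle mouse 4. Migratory dendritic cells, which have matured and express Fscn1 and Ccr7 on their way to lymph nodes, had 219, 370, 292 and 284 CPM in treated mice and 48.9, 79.3, 20.5 and 37.5 CPM in vehicle mice, counting mice with at least 10 such cells. Their vehicle levels rested on 11 to 19 cells and 3 to 15 Crem UMIs per mouse.

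In cDC2, the conventional dendritic cells that mainly serve CD4 T cells, 2 treated mice had at least 20 cells, with 119.5 and 138 CPM, against 5.50, 3.94, 17.8 and 8.996 CPM in vehicle mice 1 to 4. The log2 change of 3.602 ± 0.35 was the widest of the fitted classes, rank 2 of 4724 genes. It ran from 3.35 to 4.29 with single mice left out, the highest without vehicle mouse 3. In each of the 3 dendritic cell classes the lowest treated mouse lay above the highest vehicle mouse.

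B cells and T cells had lower treated means than cDC1. Ascites B cells had 129, 85.9, 194 and 187 CPM in treated mice 1 to 4, against 30.9, 17.9, 13.4 and 25.9 CPM in vehicle mice 1 to 4. The log2 change was 2.66 ± 0.22, rank 2 among the rises of 5595 genes. In T cells the levels were 93.8, 126, 176 and 161 CPM in treated mice, against 4.09, 10.6, 13.3 and 40.9 CPM in vehicle mice. Their log2 change was 2.48 ± 0.40, rank 2 of 4197 genes. With single mice left out it ran from 2.21 to 3.99, the latter without vehicle mouse 4, the highest of the vehicle mice.

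T cells were divided by transcript into helper cells with Cd4 and cytotoxic cells with Cd8a or Cd8b1. The treated means were 172 ± 76.1 CPM in CD4 T cells (n = 3) and 83.3 ± 30.5 CPM in CD8 T cells (n = 2), with overlapping ranges. The 3 treated mice with at least 20 CD4 T cells had 84.4, 223 and 208 CPM, and the only such vehicle mouse, mouse 4, had 60.3 CPM. In CD8 T cells, treated mice 1 and 4 had 61.7 and 105 CPM, against 7.81 and 33.6 CPM in vehicle mice 1 and 4. The log2 change of 1.75 ± 0.57 in CD8 T cells, rank 9 of 3582 genes, ranged from 1.19 without treated mouse 4 to 3.42 without vehicle mouse 4, and was 1.28 without vehicle mouse 1.

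Macrophages and classical monocytes had the lowest treated means of these classes. Macrophages had 78.8, 92.8, 69.5 and 70.7 CPM in treated mice 1 to 4, against 10.2, 13.4, 6.22 and 15.0 CPM in vehicle mice 1 to 4. The log2 change was 2.78 ± 0.22, rank 4 of 7863 genes, and 0.77 when Crem was averaged over cells instead of over UMIs. Classical monocytes, the Ly6c2-expressing precursors recruited from blood, had 35.9, 65.0 and 95.9 CPM in treated mice 1, 3 and 4, against 13.4, 8.14 and 12.9 CPM in vehicle mice 1, 3 and 4. Crem did not pass the low-count filter in classical monocytes, so no log2 change was fitted there. NK cells of treated ascites numbered 3 to 6 per mouse, and 13 of 18 of them, against 5 of 63 in vehicle mice, had a Crem UMI. Pooled over mice, these NK cells had 287 CPM in treated (95% exact Poisson interval 177 to 438) and 18.8 CPM in vehicle mice (6.09 to 43.8), a treated level within the range of treated migratory dendritic cells over mice.

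**Figure D1:**
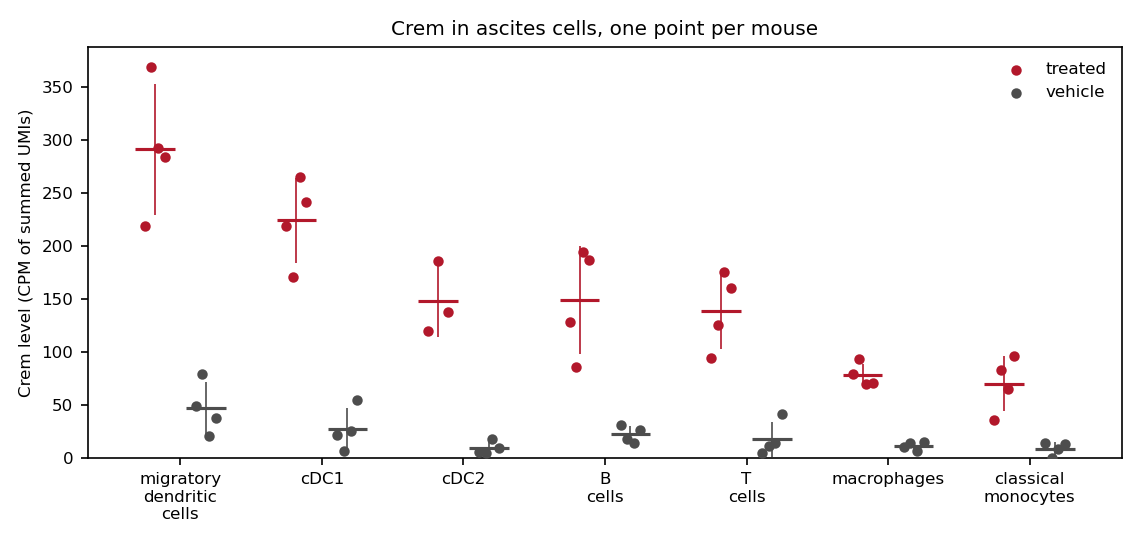
Crem level (CPM of summed UMIs) in 7 classes of ascites cells, treated mice left and vehicle mice right in each class; points are mice with at least 10 cells of the class, horizontal lines the mean and vertical lines 1 SD. In every class shown the lowest treated mouse lies above the highest vehicle mouse, and treated means run from 69.9 CPM in classical monocytes to 291 CPM in migratory dendritic cells.

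Over mice with at least 10 cells of a class, the order by mean level in treated ascites was migratory dendritic cells (291 ± 61.6 CPM, n = 4), cDC1 (224 ± 40.4, n = 4), neutrophils (149 ± 49.9, n = 3), B cells (149 ± 51.3, n = 4), cDC2 (148 ± 34.2, n = 3), T cells (139 ± 36.7, n = 4), macrophages (77.9 ± 10.7, n = 4) and classical monocytes (69.9 ± 26.0, n = 4). The neutrophil value rested on 13 Crem UMIs in 36 cells. Neighbours in this order had overlapping ranges over mice except for T cells and macrophages. In vehicle ascites the same classes held 46.6 ± 24.8, 26.9 ± 20.2, 9.24 ± 15.997, 22.0 ± 7.82, 9.05 ± 6.18, 17.2 ± 16.2, 11.2 ± 3.86 and 8.60 ± 6.20 CPM, with n = 4 for each but neutrophils (n = 3). In treated ascites cDC1 were 9.08% of the cells and held 30.15% of the Crem UMIs, and migratory dendritic cells were 7.02% of the cells and held 19.5%. Vehicle ascites likewise had 7.48% of the cells and 23.67% of the Crem UMIs in cDC1, and 2.39% and 7.73% in migratory dendritic cells. Treated cDC1 and migratory dendritic cells had medians of 18636 and 12720 UMIs, against 5178 over all treated ascites cells. Shares of Crem UMIs thus also follow depth per cell.

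The number of cells with a Crem UMI and the number of UMIs per such cell both went with treatment. In cDC1, 92.0% ± 5.6 of treated cells and 32.8% ± 20.7 of vehicle cells had at least 1 Crem UMI (SD over mice, n = 4 each). Of 172 treated cDC1, 117 had 3 or more Crem UMIs, against 7 of 185 vehicle cDC1, and the highest counts in a single cell were 13 and 6. In ascites B cells the shares with at least 1 UMI were 39.9% ± 9.6 and 9.71% ± 3.7, and 19 of 322 treated cells and 3 of 693 vehicle cells had 3 or more.

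A cell with more UMIs has more chances to show Crem, so the shares were also computed with each cell thinned to 2000 UMIs. Thinned shares in treated and vehicle mice were 35.6% and 5.05% of cDC1, 24.1% and 4.59% of B cells, and 23.2% and 3.22% of T cells. They were 21.4% and 1.67% of cDC2, 12.8% and 1.89% of macrophages and 12.4% and 2.50% of classical monocytes. The arms did not overlap in any of these 6 classes. Median depth per cell was 18636 UMIs in treated and 19644 UMIs in vehicle cDC1, 3833 and 3966 UMIs in B cells, and 4565 and 4672 UMIs in T cells.

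**Figure D2:**
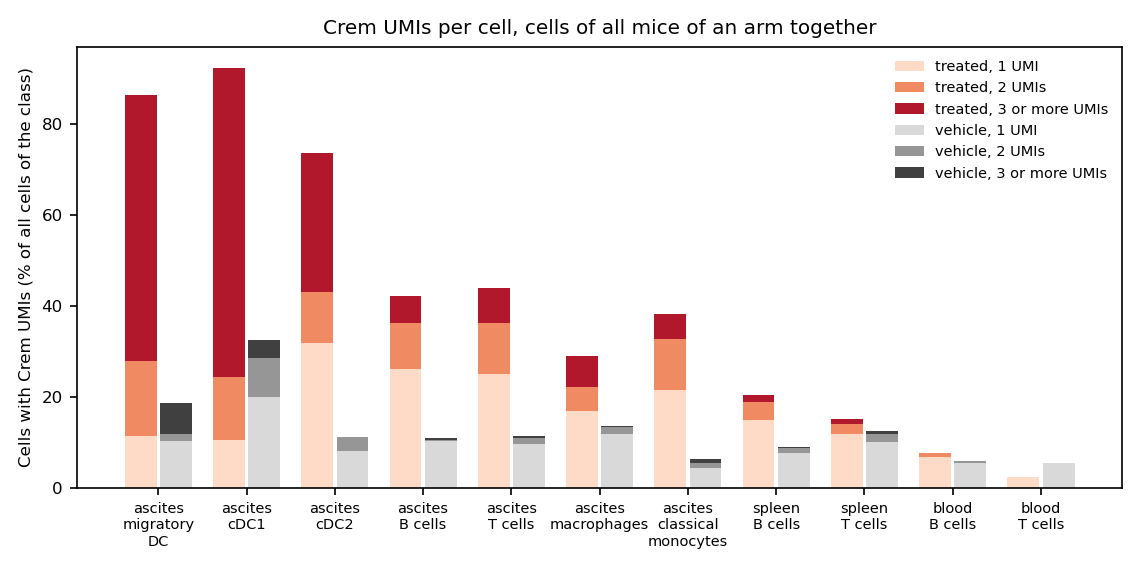
Share of cells (% of all cells of the class, all mice of an arm together) with 1, 2 or 3 or more Crem UMIs, treated left in red and vehicle right in grey, not thinned for depth. Of treated ascites cDC1, 68.0% had 3 or more Crem UMIs, against 3.78% of vehicle cDC1. In treated ascites B cells and T cells the shares were 5.90% and 7.73%, whereas in blood no B cell or T cell of either arm had 3 or more.

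Macrophages differed between the arms in depth, with a median of 4022 ± 2112 UMIs per treated cell and 14516 ± 1704 per vehicle cell (mean of the mouse medians ± SD, n = 4 each). In the macrophage gate, 131 of 308 treated and 133 of 620 vehicle cells belonged to 1 cluster of shallow barcodes. Over that whole cluster, cells outside the gate included, medians were 673 UMIs in treated and 665 UMIs in vehicle mice. Crem was not higher in treated mice there: 19 UMIs over 221 treated cells gave 65.1 CPM and 18 UMIs over 208 vehicle cells gave 87.0 CPM. The pooled level over every barcode of the ascites library was 68.2 CPM. The part of RNA free in the suspension in these values was not tested. With cells under 2000 UMIs left out, a choice made after seeing the data, macrophages had 78.8 ± 12.4 CPM in treated and 9.73 ± 3.79 CPM in vehicle mice (SD, n = 4 each), and the share with a Crem UMI was 48.4% against 14.7%.

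Of the 2 deeper clusters named as macrophages with cells of both arms, the larger showed the difference separately. Treated mice had 49.6 to 83.5 CPM there and vehicle mice 3.85 to 11.9 CPM. In the smaller, 107 UMIs in 32 treated cells gave 131 CPM and 20 UMIs in 56 vehicle cells gave 14.3 CPM. By gate, 14 of its treated cells were cDC1 and 5 were macrophages, against 6 and 41 of its vehicle cells. Its values therefore do not compare macrophages alone. A cluster of 220 treated and 179 vehicle ascites cells that stayed unnamed had 81.2 to 114 CPM in treated and 3.20 to 8.25 CPM in vehicle mice. Its treated cells included 86 gated classical monocytes and 63 gated macrophages, and its vehicle cells 54 and 77. It thus mixes these classes in unlike proportions between the arms.

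Spleen and blood gave smaller differences. Over all spleen cells the level was 41.1, 31.4 and 25.5 CPM in treated mice 2 to 4, against 14.0, 15.99 and 19.8 CPM in vehicle mice 1 to 3. Blood cells as a whole had 14.4, 20.04 and 15.3 CPM in treated mice 2 to 4, against 13.01, 16.1 and 11.5 CPM in vehicle mice 1 to 3. The arms did not overlap in spleen and overlapped in blood.

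Among spleen classes, the arms stood apart in B cells. They had 43.4, 38.3 and 31.1 CPM in treated mice 2 to 4, against 12.2, 14.3 and 22.7 CPM in vehicle mice 1 to 3, without overlap. The log2 change was 1.32 ± 0.21, rank 9 among the rises of 8111 genes, and 0.85 when averaged over cells. Thinned to 2000 UMIs, 7.75% of treated and 2.88% of vehicle splenic B cells had a Crem UMI. In each of 3 deep clusters of B cells the treated level was the higher, at 47.4, 42.2 and 35.8 CPM in treated against 15.0, 11.9 and 17.4 CPM in vehicle spleens. A cluster of shallow B cell barcodes, with medians of 644 and 661 UMIs, held 4 Crem UMIs in treated and 5 in vehicle spleens, or 30.5 and 40.7 CPM.

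T cells of the spleen had 29.8, 30.02 and 26.5 CPM in treated mice 2 to 4, against 16.6, 22.9 and 31.1 CPM in vehicle mice 1 to 3. The arms overlapped, with a log2 change of 0.24 ± 0.23. CD4 T cells of the spleen had 58.6, 59.7 and 19.0 CPM in treated and 28.1, 44.4 and 55.3 CPM in vehicle mice, also overlapping (log2 change 0.18 ± 0.45). CD8 T cells had 12.1, 14.0 and 18.1 CPM in treated and 5.91, 11.0 and 13.7 CPM in vehicle mice, with overlap. The 4 T cell clusters of the spleen did not move alike: the largest had 17.5 to 24.0 CPM in treated and 8.40 to 11.1 CPM in vehicle mice without overlap, whereas another had 17.5 to 41.2 CPM in treated and 18.4 to 66.1 CPM in vehicle mice.

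In blood the arms overlapped in B cells, T cells and NK cells. Blood B cells had 16.7, 18.4 and 18.3 CPM in treated mice 2 to 4, against 12.2, 17.3 and 13.6 CPM in vehicle mice 1 to 3. The log2 change was 0.37 ± 0.31, and -0.042 when averaged over cells instead of over UMIs. Blood T cells had 3.78, 7.202 and 0 CPM in treated and 5.54, 11.2 and 5.85 CPM in vehicle mice, on 0 to 6 Crem UMIs per mouse. Blood NK cells had 9.59, 58.6 and 22.0 CPM in treated and 30.7, 30.6 and 23.7 CPM in vehicle mice. Pooled over mice, blood T cells had 3 Crem UMIs in 833420 treated and 12 in 1591261 vehicle UMIs, or 3.6 CPM (95% exact Poisson interval 0.742 to 10.5) and 7.54 CPM (3.90 to 13.2), counting error only. The upper bound in treated blood T cells lay below every treated ascites T cell level. Blood NK cells pooled to 34.6 CPM (20.2 to 55.4) in treated and 28.1 CPM (15.0 to 48.1) in vehicle mice, so a small difference was not detectable at this depth in either class.

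Dendritic cells were rare in spleen, so the contrast with ascites rests on few cells. Of 20 treated splenic cDC1, 3 had a Crem UMI, and of 32 vehicle splenic cDC1 0 had one, which allows a share of up to 9.38%; counting error is all that this limit covers. Median depths there were 17362 and 18730 UMIs per cell, close to those of ascites cDC1. Spleen erythroid cells, which served as a class that should lack the gene, had a Crem UMI in 1 of 23 treated and 3 of 53 vehicle cells. Their medians were 4449 and 1902 UMIs. Pooled vehicle erythroid cells had 15.0 CPM (exact Poisson interval 4.87 to 35.0), against 16.7 CPM over all vehicle spleen cells. Treated erythroid cells had 9.24 CPM (0.234 to 51.5), against 32.7 CPM over all treated spleen cells. On 5 vehicle UMIs and 1 treated UMI, erythroid cells thus did not separate from all spleen cells of their arm. They give no level for cells without Crem.

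**Figure D3:**
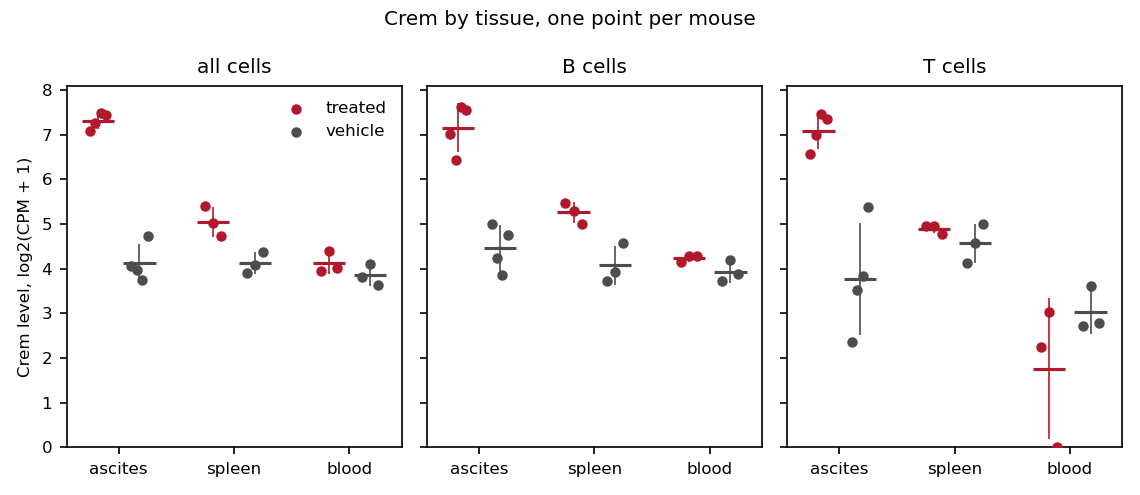
Crem level on the log2(CPM + 1) scale for all cells, B cells and T cells of ascites, spleen and blood, treated mice left and vehicle mice right; points are mice, horizontal lines the mean and vertical lines 1 SD. The arms stand apart in ascites for all 3 panels, in spleen for all cells and B cells, and overlap in blood and in splenic T cells.

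In treated mice the range of ascites levels lay above the range of blood levels, without overlap, in B cells (85.9 to 194 CPM against 16.7 to 18.4 CPM) and in T cells (93.8 to 176 CPM against 0 to 7.202 CPM). In vehicle mice B cells lay at 13.4 to 30.9 CPM in ascites, 12.2 to 22.7 CPM in spleen and 12.2 to 17.3 CPM in blood, and these ranges overlapped. Tissue and library cannot be told apart between ascites and the other tissues, since ascites was a library of its own; spleen and blood came from one library. No test of the difference between tissues was made for Crem.

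The other genes of the pathway played no part in choosing Crem, but their lists were chosen with earlier results of these data known. These genes were tested with edgeR's quasi-likelihood test in 11 combinations of tissue and class, with Benjamini-Hochberg adjustment over all genes and a threshold of 0.05. Of all genes tested, the calls made up 7.77% in ascites B cells (3.29% higher, 4.49% lower), 0.619% in ascites T cells (0.357% higher, 0.262% lower) and 12.9% in ascites macrophages (6.1% higher, 6.8% lower). The shares were 1.97% in ascites classical monocytes (1.1% higher, 0.872% lower), 16.4% in ascites cDC1 (7.9% higher, 8.49% lower) and 4.25% in ascites cDC2 (2.16% higher, 2.1% lower). Outside ascites they were 4.04% in splenic B cells (2.26% higher, 1.79% lower), 1.98% in splenic T cells (0.632% higher, 1.35% lower), 0.879% in blood B cells (0.591% higher, 0.288% lower), 0.163% in blood T cells (0.109% higher, 0.0544% lower) and 0.467% in blood NK cells (0.34% higher, 0.127% lower). Counts of list members below are to be read against these shares. Single mice moved some of them: the share in ascites T cells was 4.22% without treated mouse 4 and 0.284% without vehicle mouse 2, and 0.305% to 0.881% without each other mouse. In cDC2 it was 1.22% and 0.705% without treated mouse 1 or 3, 2.58% without vehicle mouse 3 and 8.23% without vehicle mouse 4. In ascites B cells it was 5.12% without treated mouse 4, in classical monocytes 1.03% and 1.14% without treated mouse 1 or 3, and in macrophages 8.36% without treated mouse 3. In splenic B cells it was 2.27% without treated mouse 3 and 2.13% without vehicle mouse 2, and in splenic T cells 1.24% without treated mouse 4, 1.2% without vehicle mouse 1 and 1.29% without vehicle mouse 3. In blood it was 0.462% and 0.57% in B cells without treated mouse 2 or 3, 0.2% and 0.188% in NK cells without treated mouse 3 or vehicle mouse 1, and 0% to 0.775% in T cells over the mice left out. With at most 5% mitochondrial UMIs allowed per cell, all list calls in ascites B cells except Pde3b, all in splenic B cells except Junb and all in blood B cells were no longer made, as were Fosl2 in ascites T cells and Il10, Atf3 and Atf6 in macrophages. That limit left 2958, 2307 and 1974 genes tested in B cells of ascites, spleen and blood, so a gene could also drop out untested. With Leiden clusters in place of the gate, Ccl3 in cDC1 and cDC2, Atf6 in cDC2 and Fosl2, Atf4 and Atf6 in macrophages were not called. The make-up of the classes differed between the arms. Of the ascites B cells, 1 cluster held 6 treated and 95 vehicle cells and the main one 316 and 597, and of the macrophages, 1 cluster held 0 treated and 91 vehicle cells and the largest 90 and 267. With clusters that had at least 90% of their cells from 1 arm left out, a choice made after seeing the data, Gem and Atf6 in B cells were no longer called (Atf6 log2 change -0.48, edgeR adjusted p = 0.182), and the other list calls in ascites held. The log2 changes there were -1.15 for Nfatc1 and -0.75 for Bcl2 in B cells and -1.24 for Il10 in macrophages, and Crem had 2.52 in B cells and 2.91 in macrophages. Sik1, Atf3, Creb1 and Atf1 each stand in 2 of the 4 lists and are counted in both.

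The first list held 15 genes of the SIK, CRTC and CREB machinery, 14 of them tested in at least 1 combination. In all, 6 of its 126 tests were calls, and they concerned Crtc3 and Sik1. In the classes with these calls, the share of all genes called was 12.9% in macrophages, 16.4% in cDC1, 4.25% in cDC2, 7.77% in ascites B cells and 0.879% in blood B cells. Crtc3, a CREB coactivator that SIKs restrain, rose in ascites macrophages (54.0 ± 3.97 CPM in treated and 28.5 ± 5.91 CPM in vehicle mice, log2 change 0.95 ± 0.19, edgeR adjusted p = 0.00183, n = 4 each). It rose too in cDC1 (log2 change 1.05 ± 0.24, edgeR adjusted p = 0.00195) and in cDC2 (1.19 ± 0.24, adjusted p = 0.00497, lost when either treated mouse was left out). In the other classes its log2 change ran from -0.28 in blood NK cells to 0.85 in ascites classical monocytes, without a call.

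Sik1, the SIK family member whose own transcription is driven by CREB, fell in ascites B cells and cDC1 and rose in blood B cells. It had 237 ± 33.0 CPM in treated and 314 ± 36.4 CPM in vehicle ascites B cells (log2 change -0.50 ± 0.13, edgeR adjusted p = 0.00742, n = 4 each), a call lost without treated mouse 3 or 4. In cDC1 it had 83.0 ± 12.5 and 126 ± 20.1 CPM in treated and vehicle mice (log2 change -0.67 ± 0.15, adjusted p = 0.00156). The rise in blood B cells, 176 ± 8.61 CPM in treated and 137 ± 9.83 CPM in vehicle mice (log2 change 0.41 ± 0.11, adjusted p = 0.0237, n = 3 each), was lost without treated mouse 2 or 3 or vehicle mouse 1 or 3, with the replicate block and by DESeq2. The difference between these tissues was not tested.

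The kinases Sik2 and Sik3, the coactivator Crtc2 and the transcription factors Creb1 and Atf1 had no call in any combination. Their log2 changes ran from -0.47 to 0.66 for Sik2 (6 combinations), from -0.09 to 0.84 for Sik3 (8), from -0.51 to 0.41 for Crtc2 (8), from -0.26 to 0.40 for Creb1 (11) and from -0.22 to 0.70 for Atf1 (10). In ascites macrophages the median over the 14 tested genes of the list was a log2 change of 0.25, against 0.01 over all genes, and in cDC1 it was -0.04 against -0.015. Where the list had no call, edgeR gave 1 of 11 genes at an unadjusted p under 0.05 in ascites T cells, 2 of 8 in classical monocytes, 1 of 13 in splenic B cells, 0 of 13 in splenic T cells and 0 of 9 and 0 of 7 in blood T and NK cells, and DESeq2 likewise called 0 in each.

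The second list held 20 known targets of CREB and CRTC besides Crem, 18 of them tested. Their calls went both ways, 17 higher and 16 lower among 156 tests. In ascites B cells 4 of 17 members were higher and 4 lower, in cDC1 1 of 15 was higher and 5 lower, in macrophages 2 of 18 were higher and 2 lower, and in cDC2 2 of 15 were higher and 1 lower. The shares of all genes called higher and lower were 3.29% and 4.49% in B cells, 7.9% and 8.49% in cDC1, 6.1% and 6.8% in macrophages and 2.16% and 2.1% in cDC2. The median log2 change of the tested members was -0.19 in B cells, -0.41 in cDC1, 0.09 in macrophages and -0.20 in cDC2, against medians of all genes of 0.01, -0.01, 0.01 and 0. Outside ascites, splenic B cells had 2 of 15 members higher and 3 lower, against 2.26% and 1.79% of all genes. Blood B cells had 4 of 12 higher and 0 lower, against 0.591% and 0.288% of all genes, with a median of 0.22 against 0.006. Each of these 4 calls was lost with the replicate block.

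Of the phosphodiesterases, the enzymes that break down cAMP, Pde3b, Pde4b and Pde4d had 9 calls in 26 tests, all higher, and 17 tests without a call. Where these calls fell, 3.29%, 2.26% and 0.591% of all genes were higher in B cells of ascites, spleen and blood, 7.9% in cDC1 and 2.16% in cDC2. Pde3b rose in 5 combinations and had a positive log2 change in all 11. In B cells it had 418 ± 45.3 CPM in treated and 161 ± 23.3 CPM in vehicle ascites (log2 change 1.28 ± 0.13, edgeR adjusted p = 1.62e-10, n = 4 each). In spleen B cells the levels were 100.3 ± 8.83 and 39.2 ± 7.29 CPM (log2 change 1.45 ± 0.14, adjusted p = 4.45e-09, n = 3 each). In blood B cells they were 67.3 ± 7.67 and 31.6 ± 0.794 CPM (log2 change 1.11 ± 0.18, adjusted p = 6.99e-06, n = 3 each; lost with the replicate block and by DESeq2). The ranges of treated and vehicle mice stood apart in each of the 3 tissues. Pde3b also rose in ascites cDC1 (log2 change 1.23 ± 0.17, adjusted p = 3.9e-06) and cDC2 (1.995 ± 0.32, adjusted p = 0.000708).

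Pde4b, named in spleen after its value was seen, rose in B cells of ascites (log2 change 0.56 ± 0.13, edgeR adjusted p = 0.00215), spleen (0.88 ± 0.16, adjusted p = 0.000319) and blood (0.46 ± 0.12, adjusted p = 0.0282, lost by DESeq2, with the replicate block and without treated mouse 2 or 3 or vehicle mouse 1 or 2). The log2 change of Pde4b was positive in 3 of its 6 ascites tests. Pde4d rose in ascites B cells, with 32.0 ± 3.33 CPM in treated and 5.95 ± 3.16 CPM in vehicle mice (log2 change 2.06 ± 0.39, adjusted p = 0.000186, n = 4 each). In splenic B cells, where Crem itself differed by 1.32 on the log2 scale, 3 immediate-early genes of the list fell. They were Junb (340 ± 34.6 CPM in treated and 599 ± 30.8 CPM in vehicle mice, log2 change -0.74 ± 0.08, adjusted p = 1.77e-08, n = 3 each), Fosb (-0.89 ± 0.09, adjusted p = 6.07e-08) and Fos (-0.50 ± 0.08, adjusted p = 7.95e-05). Junb also rose in blood B cells (0.20 ± 0.05, edgeR adjusted p = 0.0273, lost with the replicate block and without treated mouse 3 or 4 or vehicle mouse 3). It fell in blood NK cells (-0.45 ± 0.12, edgeR adjusted p = 0.0461, lost by DESeq2, with the block and without treated mouse 2 or 3 or vehicle mouse 1 or 2). In splenic T cells edgeR called 0 of 17 targets, with 5 at an unadjusted p under 0.05, and in blood T cells 0 of 8, with 1; DESeq2 called 0 in both.

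Orphan nuclear receptors of the Nr4a family are induced by cAMP and antigen receptor signals, and 2 of them fell in cDC1. In ascites cDC1, Nr4a1 had 99.7 ± 20.8 CPM in treated and 176 ± 42.1 CPM in vehicle mice (log2 change -0.88 ± 0.19, edgeR adjusted p = 0.00461, n = 4 each) and Nr4a3 had 25.6 ± 9.51 and 50.7 ± 12.0 CPM (-1.04 ± 0.23, adjusted p = 0.00195). Nr4a1 also fell in ascites B cells (-0.48 ± 0.15, adjusted p = 0.0329). That call was lost by DESeq2, once cells under 2000 UMIs were left out, and without treated mouse 3 or 4 or vehicle mouse 1 or 2. Nr4a2 rose in ascites macrophages, with 72.0 ± 21.1 CPM in treated and 35.6 ± 11.7 CPM in vehicle mice (1.09 ± 0.30, adjusted p = 0.0348). That call was lost once cells under 2000 UMIs were left out, and without treated mouse 1, 3 or 4 or vehicle mouse 2.

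Per1, a circadian clock gene with CREB sites, fell in ascites B cells (log2 change -0.69 ± 0.15, edgeR adjusted p = 0.00108), cDC1 (-0.80 ± 0.16, adjusted p = 0.000425) and cDC2 (-1.03 ± 0.26, adjusted p = 0.0184, lost by DESeq2, without either treated mouse or without vehicle mouse 1 or 3). Rgs2, a brake on G protein signalling, fell in cDC1 with 634 ± 96.0 CPM in treated and 995.5 ± 35.9 CPM in vehicle mice (-0.71 ± 0.09, adjusted p = 8.81e-07, n = 4 each). Il10, the anti-inflammatory cytokine that SIK inhibitors are known to raise in macrophages in culture, fell in ascites macrophages, with 60.6 ± 10.2 CPM in treated and 169 ± 58.6 CPM in vehicle mice (-1.47 ± 0.30, adjusted p = 0.0127, lost without treated mouse 2). Atf3, a stress-induced repressor, fell in the same cells (-0.59 ± 0.15, adjusted p = 0.016, lost without treated mouse 4).

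Of the AP-1 transcription factor genes Fos, Fosb, Fosl2 and Junb, 4 of 24 ascites tests were calls, all higher, and 20 were not. The log2 change was positive in 9 and negative in 15. Among all genes, the share called higher was 1.1% in classical monocytes, 2.16% in cDC2, 0.357% in T cells and 6.1% in macrophages. Fosb rose in classical monocytes (808 ± 214 CPM in treated and 392 ± 41.9 CPM in vehicle mice, log2 change 1.09 ± 0.20, edgeR adjusted p = 0.00452, n = 3 each) and Fos in cDC2 (0.69 ± 0.12, adjusted p = 0.00183, lost without either treated mouse). The Fos call was also lost when mice with at least 10 cells were used, which gave 3 treated mice. Fosl2 was the one list member called in ascites T cells (246 ± 39.5 CPM in treated and 127 ± 29.6 CPM in vehicle mice, 0.90 ± 0.20, adjusted p = 0.0205, n = 4 each). That call held in 3 of the 8 fits that left out a mouse, those without treated mouse 1, treated mouse 4 or vehicle mouse 4. It rose also in macrophages (0.50 ± 0.15, adjusted p = 0.0318). There 3 of 8 such fits kept it, those without treated mouse 2, vehicle mouse 1 or vehicle mouse 4, and it was lost once cells under 2000 UMIs were left out.

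The third list held 12 genes that CREM or ICER is known to regulate in lymphocytes and antigen-presenting cells, 10 of them tested, with 1 call higher and 6 lower among 61 tests. Of all genes, 4.49% were lower in ascites B cells, 8.49% in cDC1, 2.1% in cDC2, 1.35% in splenic T cells and 0.127% in blood NK cells. In cDC1, the class of the call higher, 7.9% of all genes were higher. Nfatc1, a calcium-responsive transcription factor, fell in ascites B cells (74.3 ± 13.6 CPM in treated and 149 ± 30.4 CPM in vehicle mice, log2 change -1.08 ± 0.19, edgeR adjusted p = 4.93e-05, n = 4 each). The survival gene Bcl2 fell in ascites B cells (-0.82 ± 0.17, adjusted p = 0.000592). It fell too in splenic T cells (261 ± 44.1 CPM in treated and 426 ± 49.7 CPM in vehicle mice, -0.77 ± 0.11, adjusted p = 7.1e-05, n = 3 each), where Crem overlapped between the arms. Ccl3, a chemokine for leukocytes, fell in blood NK cells (83.0 ± 13.9 CPM in treated and 264 ± 65.5 CPM in vehicle mice, -1.61 ± 0.26, adjusted p = 2.74e-05, n = 3 each), where Crem overlapped between the arms. It fell too in ascites cDC2 (-1.43 ± 0.33, adjusted p = 0.012) and cDC1 (-0.84 ± 0.28, edgeR adjusted p = 0.047). Both of these calls were lost by DESeq2, and without either treated mouse in cDC2 or without treated mouse 2, 3 or 4 or vehicle mouse 1, 2 or 3 in cDC1.

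Cd86, the costimulatory molecule on this list, rose in ascites cDC1 (133 ± 8.61 CPM in treated and 92.5 ± 12.3 CPM in vehicle mice, log2 change 0.47 ± 0.13, edgeR adjusted p = 0.012, n = 4 each). The remaining tested genes of this list, among them Ifng, Tnf, Ccl4 and Cd247, had no call; Cd247 is also a marker of the T cell gate. In ascites T cells edgeR called 0 of the 7 tested, with 1 at an unadjusted p under 0.05, and DESeq2 called 0; the median log2 change was -0.24, against 0 over all genes.

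The last list held 15 relatives of Crem in the CREB and ATF family, and 3 of them were called, with 1 call higher and 6 lower among 96 tests. Of all genes, 4.49% were lower in ascites B cells, 6.8% in macrophages, 8.49% in cDC1, 2.1% in cDC2 and 1.79% in splenic B cells, and 6.1% were higher in macrophages. Among the 3 was Atf3 in macrophages, given above. Atf6, a transcription factor of the endoplasmic reticulum stress response, fell in B cells (log2 change -0.69 ± 0.19, edgeR adjusted p = 0.0155) and macrophages (-0.61 ± 0.18, adjusted p = 0.0286). It fell too in cDC1 (66.1 ± 2.56 CPM in treated and 119 ± 20.6 CPM in vehicle mice, -0.90 ± 0.14, edgeR adjusted p = 2.27e-05, n = 4 each) and cDC2 (-0.87 ± 0.25, adjusted p = 0.0489). Outside cDC1 these calls were lost by DESeq2, and without treated mouse 3 or 4 or vehicle mouse 4 in B cells, treated mouse 2, 3 or 4 or vehicle mouse 2 or 3 in macrophages, and either treated mouse or vehicle mouse 1, 2 or 3 in cDC2. Atf4, the effector of the integrated stress response, rose in ascites macrophages (0.51 ± 0.12, adjusted p = 0.00633) and fell in splenic B cells (-0.37 ± 0.10, adjusted p = 0.027, kept only without treated mouse 4 among the 6 fits that left out a mouse, and lost by DESeq2). The widest log2 change of any tested relative was -0.69 in ascites B cells, -0.90 in cDC1 and 0.59 in splenic B cells, where Crem had 2.66, 2.94 and 1.32. In splenic T cells Atf3 had 0.93 without a call and Crem 0.24.

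**Figure D4:**
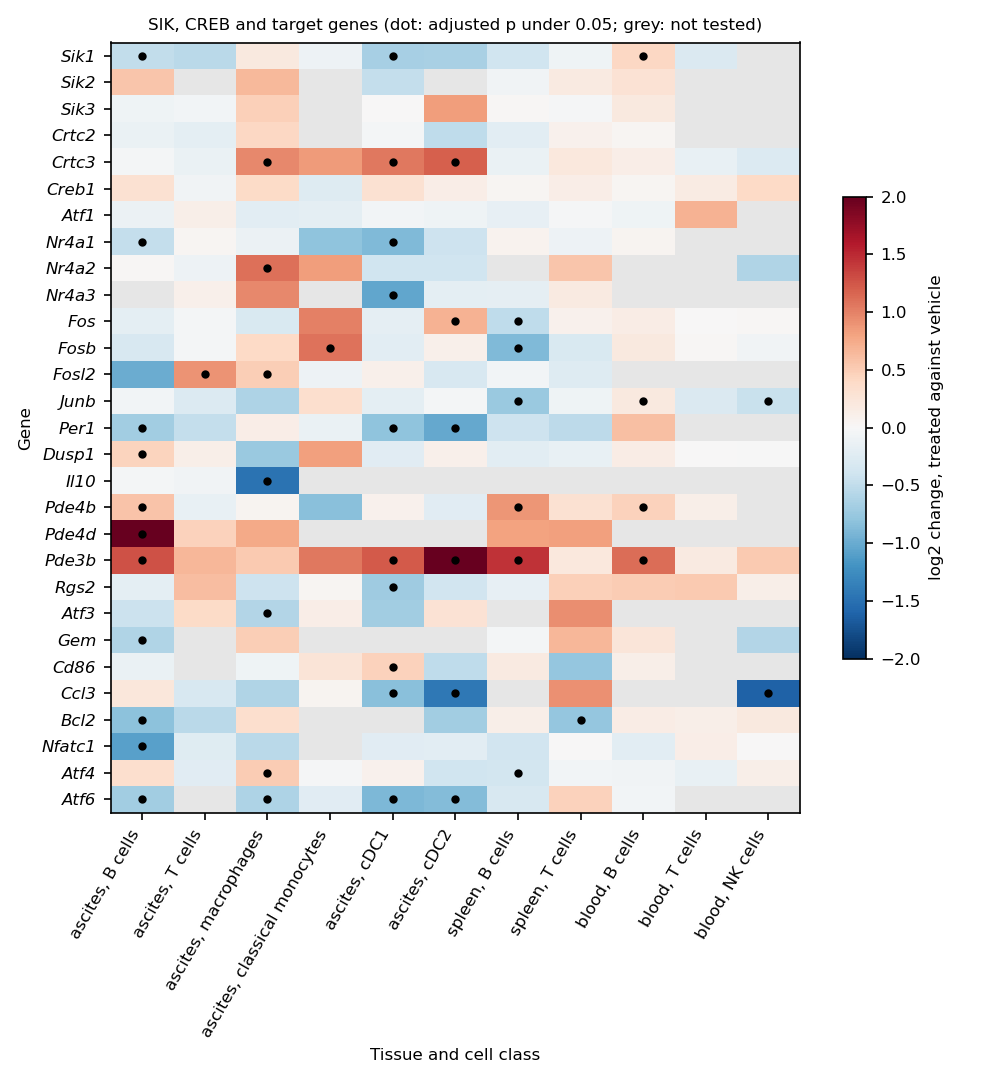
Log2 change of treated against vehicle mice (colour) for the 10 genes followed throughout and for each further list member called at least once, by tissue and class; dots mark an edgeR adjusted p under 0.05 and grey marks genes that did not pass the low-count filter. Pde3b is above 0 in all 11 columns, whereas Sik1, Per1 and Atf6 carry their ascites dots below 0.

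Genes whose pattern was most like that of Crem were sought by Pearson correlation of log2(CPM + 10) over profiles of 1 mouse, tissue and class, among 5466 genes with a mean of at least 20 CPM. Profiles share mice, libraries and free RNA, so the correlations are descriptions. By level, over 93 profiles, the 5 leading genes began with Isy1, a spliceosome component (r = 0.782), and Ramp3, a partner protein of the calcitonin receptor-like receptor (0.743). They went on with Got1, the cytosolic aspartate aminotransferase (0.696), Phlpp1, a phosphatase that acts on AKT (0.665), and Mrtfa, a coactivator of serum response factor (0.651). With the vehicle mean of the same class and tissue subtracted, over 89 profiles, they were Isy1 (0.88), Tpm4, a tropomyosin of the actin cytoskeleton (0.77), Ramp3 (0.756), Epb41, a protein that links membrane and cytoskeleton (0.715), and Arpc3, a subunit of the ARP2/3 actin-nucleating complex (0.696).

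Isy1 led both orders. It had 138 ± 29.3 CPM in treated and 34.4 ± 4.50 CPM in vehicle ascites cDC1, 110 ± 20.5 and 51.2 ± 7.09 CPM in B cells, and 135 ± 33.0 and 38.2 ± 28.3 CPM in T cells (SD, n = 4 each). In splenic B cells Isy1 had 40.0 ± 3.23 CPM in treated and 35.6 ± 4.54 CPM in vehicle mice (n = 3 each), and in blood B cells 38.9 ± 9.52 and 46.8 ± 5.20 CPM, with overlapping arms in both tissues. Within the 21 profiles of treated ascites alone its correlation with Crem was 0.796, and over the other 68 profiles 0.405. Those 68 include vehicle mice that are the only ones of their class and tissue, which lie at 0 for both genes by construction.

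Ramp3 had a wider span than Isy1. In ascites T cells it had 143.5 ± 31.1 CPM in treated and 2.56 ± 2.96 CPM in vehicle mice, and in cDC1 73.5 ± 17.3 and 3.17 ± 1.16 CPM (SD, n = 4 each). In the 2 treated mice with enough cDC2 it had 252 and 316 CPM, against 2.999 to 17.8 CPM in the 4 vehicle mice. These genes were picked for moving with Crem, so their treatment differences carry no test. None of the 5 genes of either order stayed among the 5 leading genes in the 43 level profiles or 42 response profiles of spleen and blood alone, where Isy1 had r = 0.512 by level and 0.299 by response and Phlpp1 had r = -0.029 by level.

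**Figure D5:**
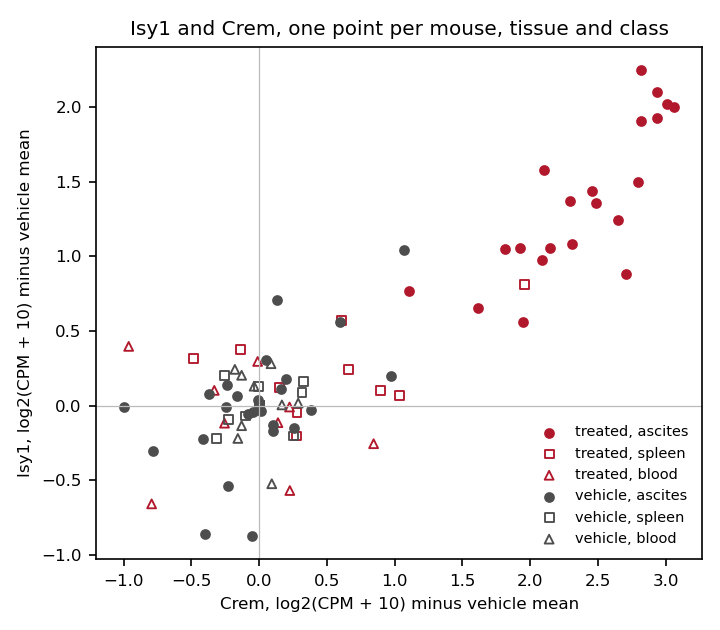
Difference from the vehicle mean of the same class and tissue on the log2(CPM + 10) scale, Crem on the horizontal and Isy1 on the vertical axis; each of the 89 points is 1 mouse, tissue and class. A vehicle mouse that is the only one of its class and tissue lies at 0 on both axes by construction. Treated ascites profiles lie at 1.11 to 3.07 for Crem and 0.56 to 2.25 for Isy1, and the other profiles reach at most 1.96 and 1.04.

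The promoters of these 8 genes were searched on both strands for the full cAMP response element TGACGTCA and for the short element TGACG or CGTCA, which each full element also contains. RefSeq promoters (GRCm38.p6, 250 bases before to 50 after the gene start) were found for all 8. Epb41 has 3 promoters there. The full element stood in 1 gene's promoters, those of Epb41, and the short element in 4, namely Epb41, Arpc3, Isy1 and Tpm4. Of all 27025 genes in that table, 2.03% have the full and 23.0% the short element in at least 1 promoter. Isy1, for leading both orders, and the Epb41 promoter that holds the full element are shown with the elements in capitals, Isy1 at chr6:87838710-87839009 and Epb41 at chr4:132075264-132075563, both on the minus strand.
Isy1: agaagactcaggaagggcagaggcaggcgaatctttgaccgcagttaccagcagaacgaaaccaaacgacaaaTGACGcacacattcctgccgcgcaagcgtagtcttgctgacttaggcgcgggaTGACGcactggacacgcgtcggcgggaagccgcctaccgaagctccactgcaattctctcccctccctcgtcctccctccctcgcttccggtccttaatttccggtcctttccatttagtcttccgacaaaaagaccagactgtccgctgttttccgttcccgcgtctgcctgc
Epb41: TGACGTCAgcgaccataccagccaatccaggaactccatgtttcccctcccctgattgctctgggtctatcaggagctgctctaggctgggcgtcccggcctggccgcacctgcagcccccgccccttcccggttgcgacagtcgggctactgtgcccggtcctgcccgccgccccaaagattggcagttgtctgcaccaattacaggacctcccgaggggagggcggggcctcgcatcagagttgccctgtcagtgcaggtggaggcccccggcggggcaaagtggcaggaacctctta
Isy1 holds the short element at 2 places and Epb41 the full element at the upstream end of the window. A match describes the letters of the window and says nothing about binding in these cells.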

How the data were processed

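Droplet RNA sequencing (10x Genomics 3′ chemistry, per the labels' protocols) measured gene transcripts and hashtag antibodies. The authors deposited matrices of whole-number UMI counts per gene and barcode, made with Cell Ranger 6.1.1 on the mm10 genome, per the submitters' processing notes; the deposited hashtag notes give treatment, mouse and tissue. Strand handling and gene annotation of the counting are not given in the sources used here.

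Filters of 200 genes and 500 UMIs as minimum and 10% mitochondrial UMIs as maximum left 11112 of 13688 ascites barcodes and 11513 of 14792 spleen and blood barcodes. HTODemux of Seurat 5.3.0 (quantile 0.99) assigned hashtags; 37.9% and 33.7% of kept barcodes were hashtag doublets and 22.8% and 16.9% negative, all left out, and doublets of 1 mouse were not sought beyond the gate. A cell joined the class with the highest mean marker expression if at least 3 markers were seen and the score led the next by 1.25 times; 10.8% and 5.7% of cells joined none. CD4 and CD8 T cells were told apart by Cd4, Cd8a and Cd8b1.

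Counts were summed per mouse and class (at least 20 cells, at least 2 mice per arm for a fit) and fitted with edgeR 4.0.16 (TMM, filterByExpr, two-sided robust quasi-likelihood test, treated against vehicle within a class, adjusted p under 0.05) in R 4.3.3; DESeq2 1.42.0 was an alternative. The fits were tested on simulated counts. Clusters came from scanpy 1.11.5 (Leiden, resolution 1, without Crem). Thinned shares are expectations for 2000 UMIs per cell, without shallower cells. Intervals and limits cover counting error only.

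Crem, the lists and the naming rule were chosen with earlier results of these data known. That rule takes up to 4 called members per list and class by smallest p, always Sik1 to Sik3, Nr4a1 to Nr4a3, Creb1, Atf1, Crtc2 and Crtc3, and the 5 genes most like Crem by each measure. The labels do not say that equal mouse numbers in the arms mark a shared litter or batch, so no pairing entered the fits.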

Additional observations from a re-analysis of the deposited data

How the results depend on the processing

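The log2 change of Crem stayed positive in each ascites class and in B and T cells of spleen under every alternative that fitted it; with at most 5% mitochondrial UMIs Crem did not pass the low-count filter in splenic B cells. Leaving out single mice gave 2.21 to 3.99 in ascites T cells and 1.19 to 3.42 in ascites CD8 T cells. Averaged over cells rather than UMIs, it was 0.77 in ascites macrophages, 0.90 in monocytes and macrophages together, 0.85 in splenic and -0.042 in blood B cells; shallow cells weigh more in that mean. In CD4 T cells of spleen its sign varied.

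Differences in the share of cells with a Crem UMI, in percentage points, moved with depth. Thinned to 2000 UMIs, they were 19.5 in ascites B cells, 19.95 in T cells, 12.1 in CD8 T cells, 10.9 in macrophages, 9.89 in classical monocytes, 11.6 in monocytes and macrophages together, 30.5 in cDC1, 19.7 in cDC2 and 20.6 in all cells, and 4.87 in splenic B cells, 3.41 in all spleen cells, 0.75 in blood B cells and -0.70 in blood T cells. Before thinning these were 30.2, 36.1, 27.5, 15.4, 32.4, 18.9, 59.3, 64.0, 35.5, 10.9, 7.21, 1.74 and -3.02. With at least 2000 UMIs per cell they were 33.7, 33.2 and 41.9 in ascites macrophages, monocytes and macrophages together and all cells, and with hashtags assigned by fraction 33.5, 33.6 and 41.2. At most 5% mitochondrial UMIs gave 48.4 in ascites T cells, 40.7 in CD8 T cells, 8.47 in macrophages and 39.9 in all cells, 3.75 in all spleen cells, 3.50 in blood B cells and 0.31 in blood T cells. Leiden clusters gave 58.1 in cDC2. The causes of these last shifts were not tested.

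Calls summed over the classes were 2749 genes in ascites, 475 in spleen and 78 in blood. In ascites at least 50 cells per mouse gave 1432, with fewer classes, and the hashtag fraction rule 4751, with more cells. DESeq2 gave 289 in spleen and 41 in blood, at most 5% mitochondrial UMIs 109 and 20, and the replicate block 19 in blood. Leaving out single mice gave 296 to 376 in spleen and 47 to 114 in blood. List calls numbered 39 in ascites (20 with at least 50 cells), 7 in spleen (3 with at most 5% mitochondrial UMIs, 12 by the fraction rule) and 7 in blood (2 by DESeq2, 3 with at most 5% mitochondrial UMIs, 4 without the low-count filter, 2 with the block, 2 to 6 without single mice). Of 49 list calls, 16 held under every alternative and 28 under each left-out mouse. Same-numbered mice correlated at -0.082 to 0.286 in their deviations, so the replicate block, which gave Crem 2.66 in ascites B cells and 1.27 in splenic B cells, is a check only.

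The Spearman measure kept 3 of the 5 genes in either order of likeness, and Phlpp1 turned to r = -0.029 in spleen and blood alone. Blood lymphocytes, spleen dendritic cells and ascites CD4 T cells of vehicle mice are limited by depth or cell number. P-values weigh the difference between the arms against the spread between mice.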

Other observations

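Plasma cells of the spleen, which secrete antibody, carried Crem in both arms: 11 of 25 treated cells and 23 of 66 vehicle cells had a Crem UMI, at medians of 23655 and 19881 UMIs per cell. Their cluster pooled to 38.8 CPM in treated and 33.0 CPM in vehicle spleens. Neutrophils of ascites had 103, 202 and 143 CPM in treated mice 1, 2 and 4, against 27.7, 0 and 0 CPM in vehicle mice 1 to 3, on at most 5 Crem UMIs per mouse and 10 to 28 cells. Spleen NK cells had 104, 34.7 and 16.7 CPM in treated mice 2 to 4, against 19.4 CPM in the 1 vehicle mouse with at least 20 cells. In splenic classical monocytes 0 of 39 treated cells had a Crem UMI, which allows a share of up to 7.69%, and 4 of 55 vehicle cells had one.

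Zfp36l2, which encodes a protein that promotes mRNA decay, had the lowest correlation with Crem by response (r = -0.817 over 89 profiles). It was chosen after its values were seen.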
